A study of Drosophila melanogaster with 24 samples.

Results

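The change in gene expression between 8-12 h and 12-16 h after egg laying was described in control embryos of Drosophila melanogaster, across all genes that could be tested. The samples were chosen by their labels, as the 3 libraries of 8-12 h controls and the 3 libraries of 12-16 h controls, which make 6 of the 24 samples of the series. Every control was heterozygous for sima (Sima 1/+): these embryos carried allele 1 of sima, which encodes the fly's hypoxia-inducible factor 1-alpha, over a wild-type chromosome, and so were not wild type. The series compared such controls with embryos that carried alleles 1 and 20 (Sima 1/20) at 3 embryonic stages, and with larvae, and its title asks whether sima is required for the glycolytic program of larvae. Each library came from whole embryos collected over 4 h, so cell types and ages within the window were mixed. A lower level in such bulk RNA can come from fewer cells of a type or from less RNA per cell, and these cannot be told apart here.

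In the middle of fly embryogenesis most cells leave the mitotic cycle, the germ band shortens and the epidermis closes over the back. Neuroblasts, the stem cells of the nervous system, have by then produced many neurons, which grow axons and form synapses, while fused myoblasts become contracting muscle. The epidermis and the tracheae (air tubes) then secrete a cuticle of chitin and proteins, the exoskeleton in which the larva hatches.

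Values were FPKM (fragments per kilobase of gene, scaled to the fragments of the library), and 6784 genes with at least 1 FPKM in at least 3 of the 18 embryo samples were tested, out of 10889 gene rows. The values as used stopped inside the last row, so genes later in the order were missing. Shares and rankings below are thus not genome-wide. A listed gene can be missing without being unexpressed: of 93 listed cytosolic ribosomal protein genes, 56 were present. The estimated depth was 11.6 to 13.4 M fragments (M for mega) in 8-12 h controls and 10.1 to 12.5 M in 12-16 h controls. Nothing in the labels says that replicates came from separate cultures or matings. The p-values and SE thus measure the spread between replicates, pooled over all 18 embryo samples including mutants, and this spread may be technical. Replicates correlated with Pearson's r of 0.973 to 0.993 across genes. On the first principal component of the 18 embryo samples, which held 79.4% of the variance, 8-12 h controls lay at -82.8, -79.8 and -81.3, and 12-16 h controls at -20.6, -19.6 and -2.44. The third 12-16 h library thus stood apart from the other 2, on the side of the 16-20 h controls, which lay at 87.1 to 91.4. Of the stage markers listed, stg (string, the Cdc25 phosphatase that drives mitosis) was the early gene that could be tested, and nSyb (a synaptic vesicle protein) and kkv (krotzkopf verkehrt, a chitin synthase) were late genes. stg was lower at 12-16 h, and nSyb and kkv were higher, as the labels have it.

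More than 2 in 3 of the tested genes changed. With limma on log2(FPKM + 1) and a Benjamini-Hochberg adjusted p under 0.05, 4621 of 6784 genes passed (68.1%), of which 2445 were higher at 12-16 h (36.0%) and 2176 lower (32.1%). At 74.7% of genes, 5068 in all, the 3 values of one stage did not overlap the 3 of the other. A log2 fold change of at least 1 (base-2 logarithm, called log2 change below) was reached by 1093 genes that rose (16.1%) and 461 that fell (6.80%), and one of at least 3 by 182 and 12 genes. With quantile normalization, 821 and 737 genes reached a log2 change of at least 1. The median log2 fold change was 0.90 among genes that rose and -0.66 among genes that fell. Among tested genes, 576 lay under 1 FPKM in all 3 8-12 h libraries and at 1 FPKM or more in all 3 12-16 h libraries, against 112 with the opposite pattern. The split between directions moved with the scaling: 52.9% of called genes rose on the deposited scale, 40.1% with quantile normalization, 42.1% with median centring, and 50.9% with limma-voom. Over all tested genes the median log2 fold change was 0.02, which quantile normalization shifted by -0.18 and median centring by -0.17, so small changes are read below against shifts of that size. Counts within lists are likewise read against the 36.0% that rose and 32.1% that fell over all tested genes. Without the third 12-16 h library, 4314 genes passed, 2314 of them higher.

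**Figure D1:**
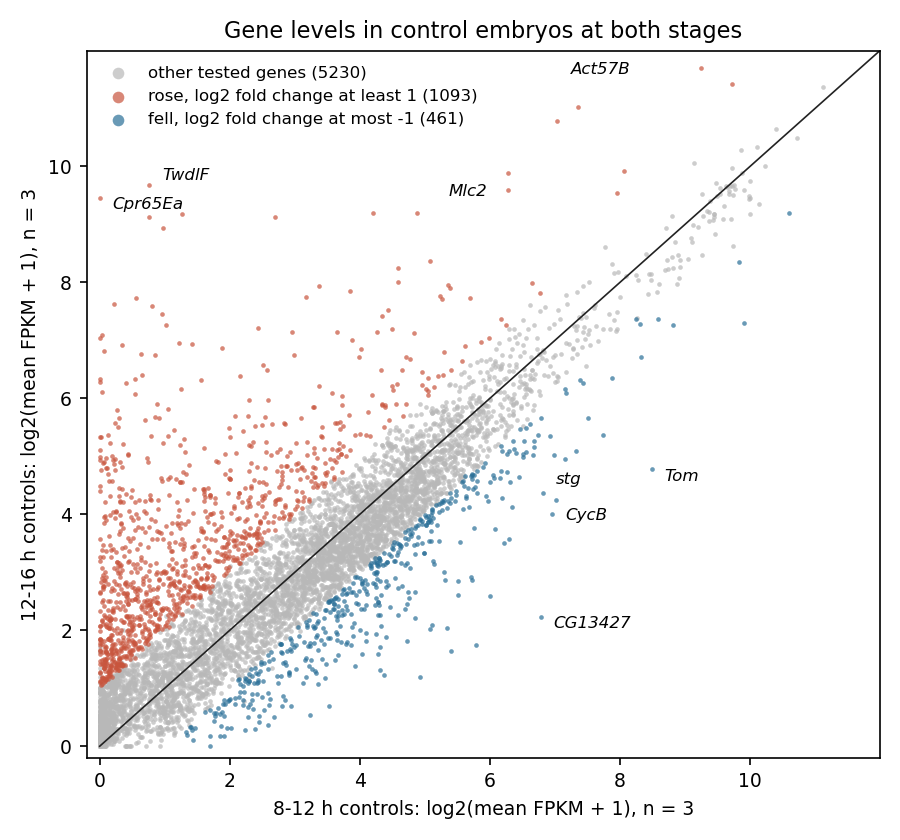
Mean level of each of the 6784 tested genes in 8-12 h controls (horizontal) and 12-16 h controls (vertical), both as log2(mean FPKM + 1), n = 3 each. Red and blue points are the 1093 and 461 genes past the adjusted p threshold with a log2 fold change of at least 1 up or down, and the diagonal marks equal levels.

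Genes for cell division fell together. Of 40 listed genes for mitotic cyclins and regulators of mitosis, 29 were in the table and tested, and all 29 fell, 25 of them by at least 1 on the log2 scale, with a median log2 fold change of -2.06 beside 0.02 over all tested genes. Their summed level fell from 757 to 820 FPKM per 8-12 h library to 127 to 193 FPKM per 12-16 h library. The largest fall among them was that of CycB (cyclin B, which activates Cdk1 at entry into mitosis). CycB stood at 119, 123 and 128 FPKM in the 3 8-12 h libraries and at 15.1, 21.9 and 8.21 FPKM in the 3 12-16 h libraries. The stages did not overlap, the third 12-16 h library was the lowest, and the log2 change was -3.05 (SE 0.35, adjusted p = 1.5e-06 in limma). stg went from 121, 108 and 106 FPKM to 22.3, 17.4 and 19.2 FPKM. Its 12-16 h values lay close together, and it fell by 2.45 on the log2 scale (SE 0.11, adjusted p = 1.1e-10 in limma). polo (Polo kinase, required at several steps of mitosis) and CycB3 (a further B-type cyclin) fell by 2.85 and 2.78. Incenp, a subunit of the chromosomal passenger complex with Aurora B, fell by 2.63 on the log2 scale.

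DNA replication genes followed with smaller changes. Of 39 listed, 27 were tested, 25 fell and none rose, with a median log2 fold change of -1.0. Mcm2 (a subunit of the replicative helicase) went from 22.2 ± 2.13 to 6.45 ± 0.817 FPKM (SD, n = 3), and changed on the log2 scale by -1.64 (SE 0.11). PCNA, the sliding clamp of DNA polymerase, went from 77.2 ± 5.34 to 33.2 ± 4.0 FPKM (SD, n = 3). geminin and dup (Cdt1, the licensing factor that Geminin inhibits) fell by 1.81 and 1.42 on the log2 scale. E2f1, the transcription factor of the G1 to S transition, fell by only 0.44, from 4.84 ± 0.328 to 3.29 ± 0.156 FPKM (SD, n = 3).

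**Figure D2:**
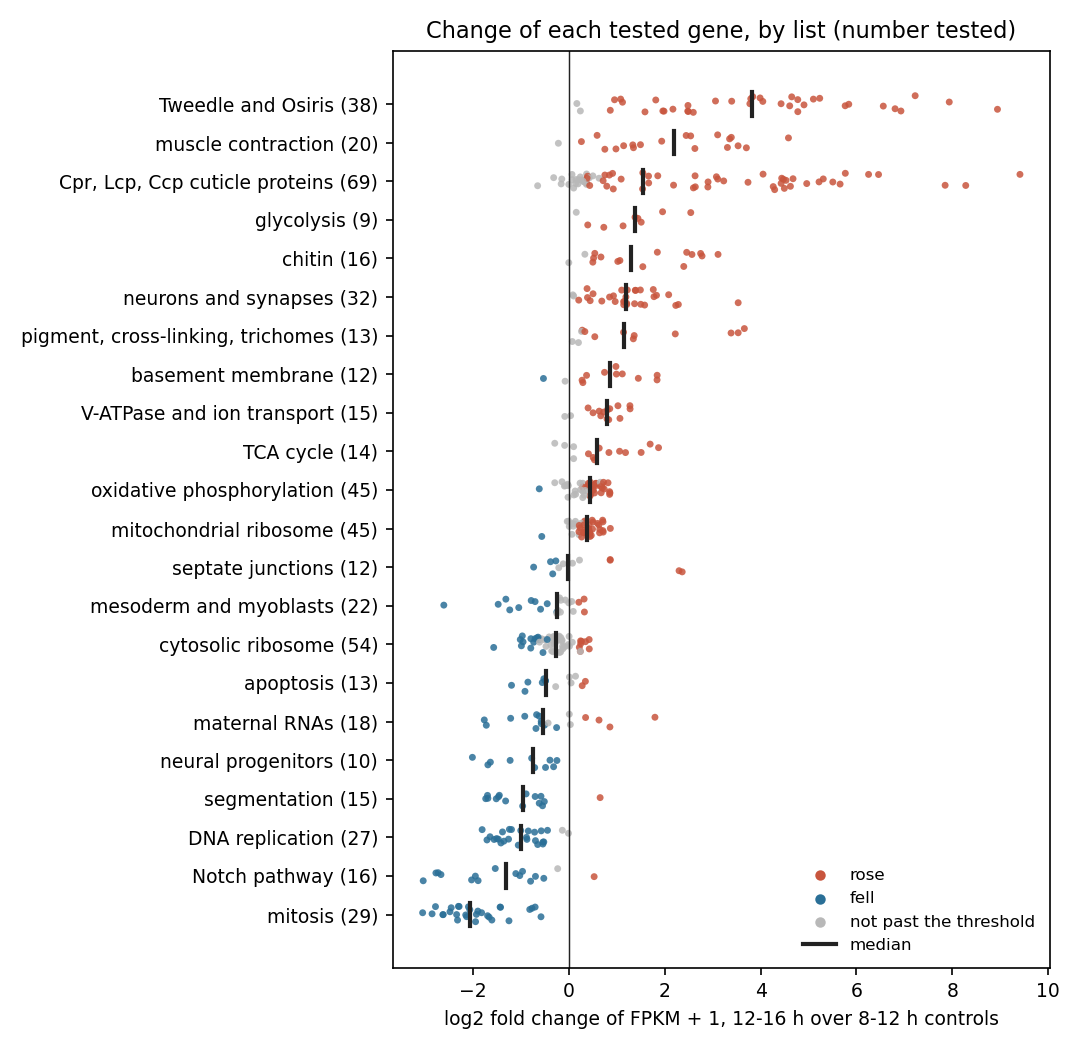
Each point is a tested gene of 22 lists, placed by its log2 fold change of FPKM + 1 from 8-12 h to 12-16 h controls, with the lists ordered by the list's median (black bar). Red points rose and blue points fell past the limma threshold, and grey points did not pass; mitosis has the lowest median (-2.06) and the Tweedle and Osiris families the highest (3.82).

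Targets of the Notch pathway and of early patterning fell as well. Notch is the receptor through which neighbouring cells choose different fates, and the genes of the Enhancer of split complex are its direct targets. Of 19 listed genes of the pathway and the complex, 16 were tested, 14 fell, and 1 rose. The riser was fng (a glycosyltransferase that modifies Notch), by 0.53, and with quantile normalization its call was lost (0.11). The 11 tested Enhancer of split genes lie between 25997621 and 26041008 on chromosome arm 3R (BDGP6, Ensembl release 115), where 10 fell and the other did not pass. E(spl)mdelta-HLH, a basic helix-loop-helix repressor of the complex, stood at 31.5, 31.4 and 37.5 FPKM at 8-12 h and at 3.25, 4.01 and 2.44 FPKM at 12-16 h. The stages did not overlap, and the log2 change was -3.04 (SE 0.20, adjusted p = 2.9e-09 in limma). Members of the Bearded family, small proteins that inhibit the ubiquitin ligase Neuralized, were among the 12 largest falls of all. Tom (Twin of m4) was the most abundant of them at 354, 348 and 369 FPKM, and went to 30.4, 23.2 and 25.4 FPKM, a log2 change of -3.72 (SE 0.20). BobA and Brd (Bearded) fell by 3.43 and 3.31 on the log2 scale. BobA has a near-identical copy, so its count is uncertain.

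Segmentation genes, which divide the embryo into repeated units, were measured in 15 of 25 listed cases, and 14 fell while 1 rose. en (engrailed, which marks posterior compartments) went from 12.9 ± 0.445 to 4.09 ± 0.933 FPKM, and ptc (patched, the Hedgehog receptor) from 18 ± 0.537 to 5.72 ± 1.08 FPKM (SD, n = 3). ftz (fushi tarazu, a pair-rule gene) went from 3.46, 2.57 and 2.30 FPKM to 0.292, 0.0516 and 0.0516 FPKM, so that only trace levels remained at 12-16 h. Its log2 fold change of -1.73 became -3.77 with a pseudocount of 0.1 and -4.43 with limma-voom, because the pseudocount of 1 shrinks the change of low genes. The gene that rose was cnc (cap'n'collar, a patterning gene of the head), from 2.29 ± 0.204 to 4.17 ± 0.13 FPKM (SD, n = 3), by 0.65 on the log2 scale, or 0.22 with quantile normalization. Of the 6 tested Hox genes, which give segments their identity, 2 fell, abd-A and Abd-B by 0.40 and 0.35 on the log2 scale, and 1 rose, lab (labial) by 0.38, which turned to -0.09 with quantile normalization.

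Neural progenitor genes fell and neuronal genes rose. All 10 tested genes of 25 listed for neural progenitors and their temporal series fell, with a median log2 fold change of -0.74. mira (miranda, which carries fate determinants into the daughter cell of a dividing neuroblast) went from 55.4, 53.6 and 49.8 FPKM to 15.6, 9.40 and 12.8 FPKM. cas (castor, a late member of the temporal series) went from 64.5, 61.0 and 54.9 FPKM to 22.9, 15.1 and 18.6 FPKM. The stages did not overlap for either gene, and the log2 changes were -2.01 (SE 0.15, adjusted p = 1.2e-08 in limma) and -1.64 (SE 0.15, adjusted p = 1.7e-07 in limma). hb (hunchback, the first gene of that series) fell by 1.69 on the log2 scale, from 7.07 ± 0.626 to 1.51 ± 0.271 FPKM (SD, n = 3).

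Of 60 listed genes for neuronal differentiation, synapses and excitability, 32 were tested, of which 30 rose and none fell, with a median log2 fold change of 1.20. nSyb, the vesicle membrane protein of synaptic release, stood at 2.86, 3.59 and 4.71 FPKM and then at 18.9, 22.5 and 21.4 FPKM, a log2 change of 2.23 (SE 0.16, adjusted p = 1.2e-08 in limma). Rab3, a small GTPase of synaptic vesicles, rose by 2.08. GluRIIE, a subunit of the glutamate receptor of the neuromuscular junction, rose by 2.29, from 2.36 ± 0.456 to 15.3 ± 1.61 FPKM (SD, n = 3). brp (bruchpilot, a scaffold of the release site) went from 0.629 ± 0.12 to 4.58 ± 0.374 FPKM (SD, n = 3), a rise of 1.78 on the log2 scale, which was 2.69 with a pseudocount of 0.1 and 2.84 with limma-voom.

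Neuropeptide and hormone genes were split: of 23 tested, 11 rose, 2 fell and 10 did not pass, beside 36.0% that rose over all genes. amon (amontillado, a convertase that cuts peptide precursors) went from 0.133 ± 0.0301 to 1.46 ± 0.111 FPKM (SD, n = 3) and rose by 1.11 on the log2 scale. This value was 2.74 with a pseudocount of 0.1, 3.40 with limma-voom and 0.62 with quantile normalization. Only 5 of 16 listed glial genes were tested. Mdr65, a transporter of the blood-brain barrier, rose from 0.256, 0.247 and 0.363 FPKM to 4.65, 5.59 and 5.42 FPKM. Its log2 fold change was 2.27, or 3.78 with a pseudocount of 0.1 and 4.11 with limma-voom. repo (reversed polarity, the transcription factor of most glia) fell from 10.4 ± 1.53 to 6.59 ± 1.22 FPKM (SD, n = 3), by 0.59 on the log2 scale. Of 10 tested sensory organ genes 5 fell, 2 rose and 3 did not pass, beside 32.1% that fell over all genes. sens (senseless, a zinc-finger factor of sensory precursors) fell by 1.69 and cato, a proneural helix-loop-helix gene, by 2.83. nompA, which encodes a matrix protein that links sensory endings to the cuticle, rose by 2.04, from 3.56 ± 0.741 to 17.6 ± 1.32 FPKM (SD, n = 3).

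**Figure D3:**
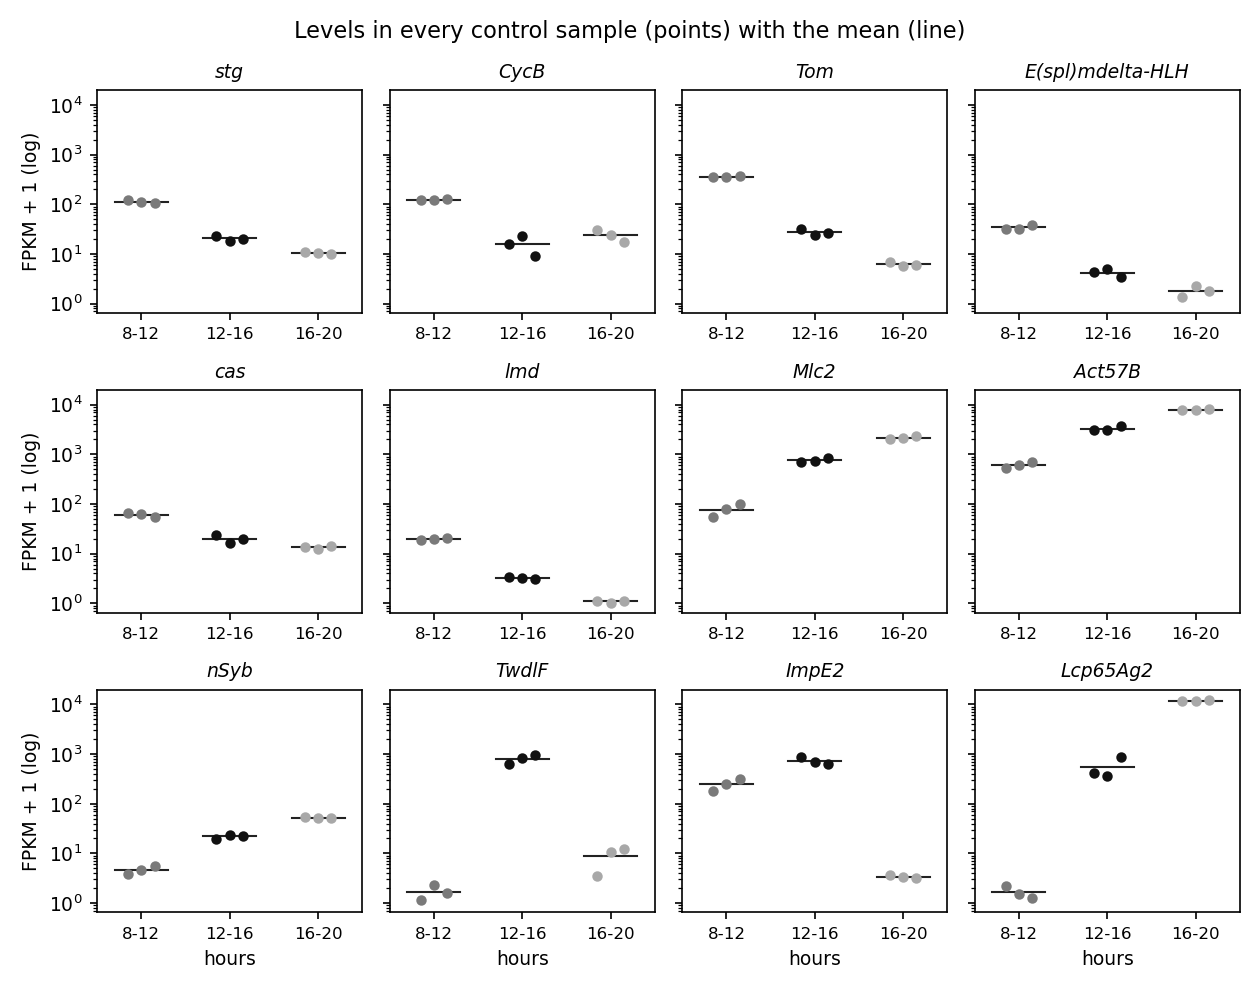
FPKM + 1 on a log axis for 12 genes in each of the 3 control libraries at 8-12 h, 12-16 h and 16-20 h (points), with the group mean (line). TwdlF and ImpE2 are highest at 12-16 h, whereas nSyb, Act57B, Mlc2 and Lcp65Ag2 are higher again in FPKM at 16-20 h. The summed FPKM of all genes was also higher at 16-20 h.

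Muscle genes rose. Of 20 tested genes for contractile proteins, of 32 listed, 19 rose, 15 of them by at least 1 on the log2 scale, with a median of 2.19, and 1 did not pass. Their summed level went from 911, 1043 and 1200 FPKM to 5497, 5361 and 6544 FPKM. Act57B, the main actin gene of embryonic muscle, stood at 522, 599 and 698 FPKM and then at 3142, 3041 and 3729 FPKM. Its stages were far apart, with a log2 change of 2.45 (SE 0.13, adjusted p = 3.7e-10 in limma). Actin genes are close in sequence, so reads may have been shared between them. Mlc2 (the regulatory light chain of muscle myosin) went from 53.2, 77.6 and 97.5 FPKM to 712, 747 and 841 FPKM, a log2 change of 3.35 (SE 0.19, adjusted p = 9.6e-10 in limma). Mf (myofilin, a thick filament protein) had the largest rise of the list, 4.58 on the log2 scale, from 0.165, 0.499 and 0.397 FPKM to 25, 32.3 and 37.8 FPKM. Prm (paramyosin) and Tm2 (a tropomyosin) rose by 3.70 and 3.10.

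The genes that set up muscle did not share that direction. Of 22 tested genes for mesoderm, myoblast identity and fusion, 10 fell, 3 rose and 9 did not pass, beside 32.1% that fell over all genes. With quantile normalization 17 fell and 1 rose, and with median centring 16 fell and none rose. lmd (lame duck, a factor required for fusion-competent myoblasts) went from 18.1, 18.8 and 19.7 FPKM to 2.46, 2.29 and 2.04 FPKM. The replicates were tight and the stages did not overlap, and the log2 change was -2.61 (SE 0.11, adjusted p = 5.6e-11 in limma). All 3 Dorsocross genes (Doc1, Doc2 and Doc3, T-box genes of the heart and amnioserosa), which lie next to each other on chromosome arm 3L, fell by 1.23, 1.31 and 1.47. tin (tinman, a homeobox gene of the heart) fell by 0.59 on the log2 scale, from 1.97, 2.27 and 2.20 FPKM to 1.39, 0.795 and 1.12 FPKM, or by 0.93 with a pseudocount of 0.1, 1.03 with quantile normalization and 0.99 with limma-voom. The 3 that rose, how, ths and pyr, did so by 0.21 to 0.33, and no call of theirs held with median centring.

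**Figure D4:**
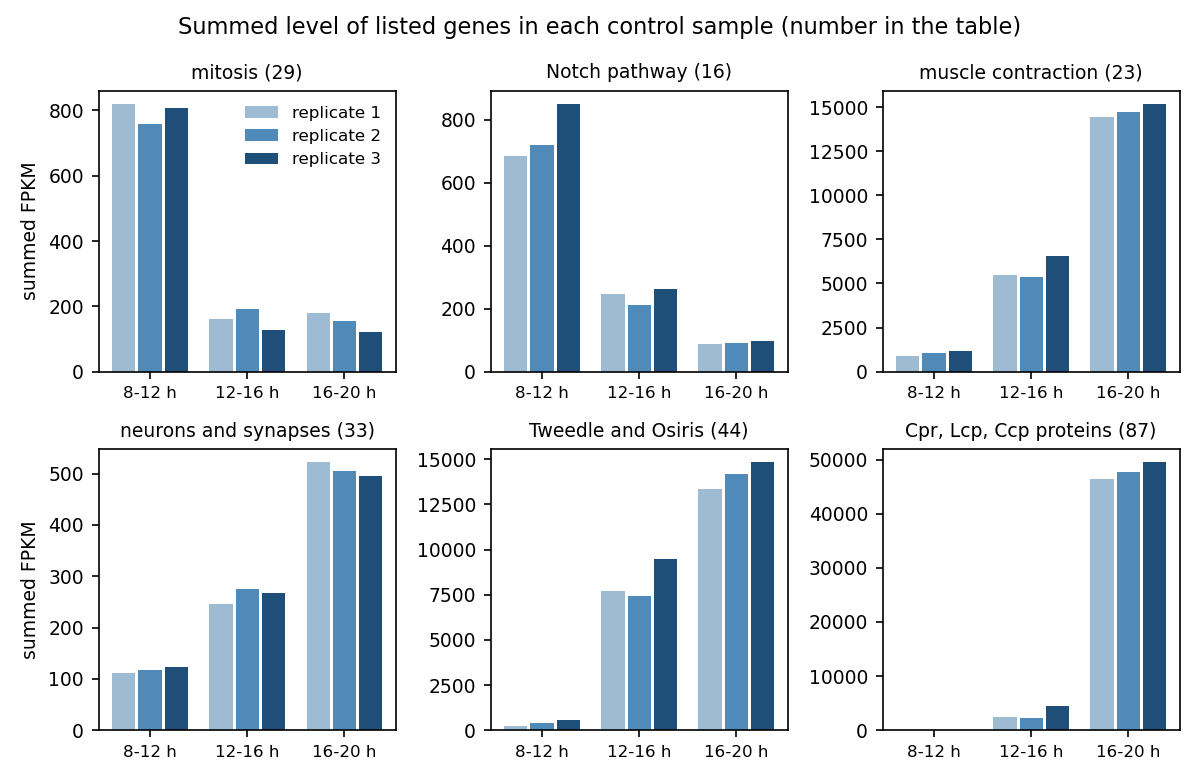
Summed FPKM of 6 lists in every control library (bars, by replicate) at 3 stages, with the number of listed genes in the table. Mitosis genes fell to 127 to 193 FPKM by 12-16 h, and the Cpr, Lcp and Ccp cuticle proteins reached 46476 to 49493 FPKM at 16-20 h. All genes summed to 150507 to 171321 FPKM at 12-16 h and to 297772 to 329589 FPKM at 16-20 h. As a share of these sums, neurons and synapses held 0.148 to 0.183% and then 0.150 to 0.175%.

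Cuticle genes made up the largest rises. Of the 12 largest among genes without overlap, 6 were Tweedle genes and 3 were genes of the Cpr and Lcp families, all of them structural proteins of the cuticle. Of 38 tested Tweedle and Osiris genes, a list that leaves out Twdlbeta, 36 rose and none fell, with a median log2 fold change of 3.82. Together they held 0.146, 0.251 and 0.367% of the summed FPKM of all genes in the 8-12 h libraries and 4.65, 4.93 and 5.52% in the 12-16 h libraries. TwdlF went from 0.173, 1.31 and 0.602 FPKM to 644, 830 and 965 FPKM, a log2 change of 8.94 (SE 0.94, adjusted p = 6.3e-07 in limma). That SE takes in the 8-12 h mutants, at 0.176, 24.9 and 49.8 FPKM. TwdlD went from 0.652, 1.42 and 0.840 FPKM to 389, 434 and 635 FPKM. In all 12 of these rises the third 12-16 h library held the highest value. Cpr65Ea was listed at 0 in all 3 8-12 h libraries and stood at 557, 589 and 958 FPKM at 12-16 h. Across all tested genes, 28 were listed at 0 in every 8-12 h library and at 1 FPKM or more in every 12-16 h library, and 1 gene had the opposite pattern.

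The Osiris genes encode transmembrane proteins of insect epithelia that secrete cuticle. The 18 tested lie between 6198811 and 6341424 on chromosome arm 3R (BDGP6, Ensembl release 115), and 17 of them rose. Osi7, given as an example, stood at 77.4, 125 and 186 FPKM at 8-12 h and at 1691, 1782 and 1784 FPKM at 12-16 h. Its 8-12 h libraries differed more than 2-fold among themselves, its 12-16 h libraries hardly differed, and the log2 change was 3.84 (SE 0.51, adjusted p = 8.3e-06 in limma).

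Of 99 listed genes of the Cpr, Lcp and Ccp families, 87 were in the table and 69 were tested, of which 47 rose and none fell. Their median log2 fold change was 1.54, and their summed level went from 42.8, 86.1 and 30.5 FPKM to 2359, 2158 and 4540 FPKM. The third 12-16 h library held about as much as the other 2 together, and without it 44 rose. With quantile normalization 40 rose and 4 fell, and with median centring 42 rose and 1 fell. Lcp65Ag1 and Lcp65Ag2, near-identical neighbours whose reads cannot be assigned with certainty, rose by 7.85 and 8.28 on the log2 scale. Of the 14 tested Lcp65A and Cpr65A genes between 6132990 and 6158630 on chromosome arm 3L, 9 rose, none fell and 5 did not pass.

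Several chitin genes were already present at 8-12 h and rose further. Of 16 tested, 14 rose and none fell, with a median log2 fold change of 1.30. kkv, the chitin synthase of the epidermis and tracheae, stood at 8.04, 9.06 and 8.91 FPKM and then at 29.0, 26.6 and 26.0 FPKM, a log2 change of 1.54 (SE 0.11, adjusted p = 1.1e-08 in limma). knk (knickkopf, which organizes chitin) rose by 1.85, and Gasp, a chitin-binding protein of the tracheae, by 2.75. serp and verm (serpentine and vermiform, chitin deacetylases that limit tube length) stood at 41.3 ± 2.98 and 108 ± 6.84 FPKM already at 8-12 h and rose by 1.07 and 1.02. Cht7, a chitinase, rose by 3.11, from 2.81 ± 0.67 to 31.7 ± 2.96 FPKM (SD, n = 3).

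Of 13 tested genes for pigment, cross-linking and the shape of epidermal cells, 10 rose and none fell. ple (pale, tyrosine hydroxylase, the first step towards the catechols that harden cuticle and towards dopamine) went from 0.460, 0.644 and 0.757 FPKM to 18, 17.7 and 17.4 FPKM, a log2 change of 3.53 (SE 0.13, adjusted p = 1.8e-11 in limma). dyl (dusky-like, a zona pellucida protein of the apical matrix) rose by 3.66, from 3.21 ± 1.21 to 50.9 ± 6.57 FPKM (SD, n = 3). mwh (multiple wing hairs) rose by 0.34 with an adjusted p of 0.036 in limma, and that call was lost in 9 of the 15 alternatives.

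Septate junction genes had no common direction: of 12 tested, 4 rose, 4 fell and 4 did not pass. These shares were near the 36.0 and 32.1% that rose and fell over all genes. The 2 with the largest rises were mesh and Ssk (snakeskin), which encode proteins of the smooth septate junction of the gut, from 5.81 ± 0.871 to 33.9 ± 2.05 and from 27.4 ± 4.12 to 139 ± 22.1 FPKM (SD, n = 3). Lac (Lachesin) and kune (kune-kune, a claudin), of the pleated junction of the epidermis and tracheae, fell by 0.73 and 0.34 on the log2 scale, and kune by 0.56 with quantile normalization. Nrx-IV (neurexin IV) stood at 37.0, 34.8 and 35.9 FPKM and then at 40.2, 40.2 and 33.8 FPKM, with overlapping stages and a log2 fold change of 0.08 (SE 0.11).

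Among tracheal genes, of 11 tested, 3 rose and 4 fell, beside 36.0 and 32.1% over all genes. btl (breathless, the FGF receptor that guides tracheal branching) fell by 0.91 on the log2 scale, from 4.36 ± 0.246 to 1.87 ± 0.308 FPKM (SD, n = 3), and kni (knirps) fell by 1.45. emp (epithelial membrane protein, a scavenger receptor) rose by 2.01. Of 18 tested genes of the salivary gland and the secretory pathway, 8 fell and 3 rose, beside 32.1 and 36.0% over all genes. fkh (fork head, required for salivary gland and gut) fell from 42.6 ± 3.49 to 24.6 ± 1.16 FPKM (SD, n = 3), by 0.77 on the log2 scale, and sage, a salivary gland factor, fell by 0.50. Gut genes were at low levels, and of 34 tested 8 rose, 6 fell and 20 did not pass, beside 36.0 and 32.1% that rose and fell over all genes. Digestive enzymes were found among both. Mal-A3, a maltase, went from 0.376, 0.940 and 0.829 FPKM to 17.0, 16.6 and 24.1 FPKM, a log2 change of 3.56 (SE 0.16), and Jon65Aiii, a digestive serine protease, rose by 3.24. Amy-p (amylase) fell by 1.29 on the log2 scale, from 4.70, 3.60 and 2.59 FPKM to 0.577, 0.595 and 1.54 FPKM, or by 1.98 with a pseudocount of 0.1 and 2.16 with limma-voom, and the call was lost without the first 8-12 h library. Mal-A1, a further maltase, fell by 0.67. Of 15 tested genes of the list for excretory tubules and ion transport, 13 rose. Its 4 largest rises were subunits of the V-ATPase, a proton pump, and Vha55 went from 48.0 ± 1.51 to 118 ± 9.39 FPKM (SD, n = 3).

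Basement membrane genes rose in 10 of 12 tested cases and fell in 1, with a median log2 fold change of 0.86. With quantile normalization 7 rose and the median was 0.46, and 8 rose with median centring and with limma-voom. SPARC, a collagen-binding glycoprotein, stood at 12.0, 14.5 and 13.1 FPKM and then at 53.5, 35.4 and 65.5 FPKM, and Ndg (nidogen) at 21.9, 23.8 and 26.5 FPKM and then at 92.8, 82.1 and 91.1 FPKM. Both rose by 1.84 on the log2 scale. Of 7 tested blood cell genes, 2 rose and 1 fell. PPO1, a prophenoloxidase of crystal cells, rose by 0.80, Pxn (peroxidasin) by 0.74, or 0.40 with quantile normalization, and srp (serpent, the GATA factor of blood and fat body) fell by 0.48, or 0.73 with quantile normalization. No fat body gene of 7 tested passed in either direction with limma on the deposited scale, while with quantile normalization and with median centring 4 fell, and with limma-voom 1 fell.

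Of 10 tested genes of dorsal closure and the amnioserosa, 5 rose and 4 fell, beside 36.0 and 32.1% over all genes. scaf (scarface, a protease-like protein of the amnioserosa) rose by 1.81 on the log2 scale, and pnr (pannier, a GATA factor of the dorsal ectoderm) fell by 1.19, from 3.71, 4.01 and 3.79 FPKM to 1.27, 0.953 and 1.17 FPKM, or by 1.79 with limma-voom. Of 13 tested apoptosis genes, 7 fell and 2 rose, beside 32.1 and 36.0% over all genes. The effector caspases Drice and Dcp-1 fell by 1.20 and 0.91, and Diap1, which inhibits them, fell by 0.55. Of the 4 activators of cell death, hid fell by 0.49 (0.86 with quantile normalization). skl (sickle) rose by 0.28 (limma adjusted p = 0.048), a call lost in 10 of the 15 alternatives. rpr (reaper) stood at 39.2, 33.5 and 36.0 and then at 27.4, 32.7 and 29.2 FPKM, and grim at 4.20 ± 0.0626 and then at 4.74 ± 0.481 FPKM (SD, n = 3), with limma adjusted p of 0.098 and 0.47, and differences between these genes were not tested.

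In each list for energy metabolism more genes rose than fell. Of 9 tested genes of glycolysis and lactate dehydrogenase, 8 rose and none fell, with a median log2 fold change of 1.38. Gapdh1 (glyceraldehyde-3-phosphate dehydrogenase) went from 7.46, 7.34 and 7.83 FPKM to 51.9, 37.6 and 59.5 FPKM, a log2 change of 2.54 (SE 0.19, adjusted p = 1.9e-08 in limma). Ald1 (aldolase) went from 35.7, 40.4 and 37.9 FPKM to 111, 96.8 and 123 FPKM, by 1.51. The calls of Ldh and Pgi were weaker. Ldh (lactate dehydrogenase), at 26.9, 28.7 and 23.0 and then 53.8, 33.2 and 47.3 FPKM, rose by 0.73 (limma adjusted p = 0.012), and without the first 12-16 h library the call was lost. Pgi (phosphoglucose isomerase) rose by 0.40, and its call was lost with median centring (0.23) and without the third library of either stage. Of 14 tested TCA cycle genes 10 rose and none fell, with a median of 0.59, led by Mdh2 (mitochondrial malate dehydrogenase), which rose by 1.87. Nuclear genes of oxidative phosphorylation rose in 26 of 45 tested cases and fell in 1, and those of the mitochondrial ribosome rose in 34 of 45 and fell in 1, with medians of 0.44 and 0.39. With median centring 21 and 19 of them rose, and no tested gene of either list reached a log2 fold change of 1.

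Cytosolic ribosomal protein genes did not move together. Of 54 tested, 14 fell, 8 rose and 32 did not pass, a smaller share of calls than the 68.1% over all genes. With quantile normalization 28 fell and 3 rose, and with median centring 35 fell and 1 rose. Some of the falls rested on low values in the second 12-16 h library: RpL8 stood at 691, 664 and 481 FPKM and then at 485, 137 and 438 FPKM, with overlapping stages, and its fall of 0.97 (limma adjusted p = 0.036) shrank to 0.39 without that library and was no longer called. RpS5b, a paralogue of RpS5a, went from 119, 102 and 83.5 FPKM to 45.4, 21.6 and 37.5 FPKM, a log2 change of -1.57 (SE 0.23).

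The ecdysone list, for synthesis of and response to the moulting hormone, held genes that went both ways. Of 14 tested, 7 rose and 4 fell, beside 36.0 and 32.1% over all genes. With quantile normalization 4 rose and 7 fell, and with median centring 6 rose and 5 fell. The falls on the deposited scale were those of dib and shd, enzymes of hormone synthesis, and of Eip75B and ImpL2 from the response. dib (disembodied) went from 2.44, 2.01 and 3.83 FPKM to 0.497, 0.395 and 0.438 FPKM, and shd (shade, which makes the active hormone) from 1.77, 1.98 and 1.35 FPKM to 0.0932, 0.0384 and 0.102 FPKM. Their log2 fold changes were -1.35 and -1.32, or -2.35 and -3.34 with a pseudocount of 0.1 and -2.54 and -4.29 with limma-voom. Eip75B, a nuclear receptor, fell by 0.58 on the log2 scale. Among genes named for their induction by the hormone in imaginal discs, ImpE1, ImpE2 and ImpL1 rose. ImpE1 went from 7.16 ± 1.30 to 26.3 ± 3.80 FPKM (SD, n = 3). ImpE2 stood at 177, 247 and 317 FPKM and then at 893, 687 and 643 FPKM, and ImpL1 at 182, 263 and 352 FPKM and then at 1127, 906 and 860 FPKM, with log2 changes of 1.60 (SE 0.32) and 1.90 (SE 0.33). The 8-12 h libraries spread almost 2-fold for ImpE2 and ImpL1, and the stages did not overlap. ImpL2, which encodes a secreted protein that binds insulin-like peptides, fell from 14.9 ± 0.429 to 11.1 ± 1.20 FPKM (SD, n = 3), by 0.40 on the log2 scale, and ImpE3 did not pass. ftz-f1, a nuclear receptor that acts after an ecdysone pulse, went from 0.410, 0.368 and 0.386 FPKM to 7.66, 12.2 and 12.0 FPKM, a log2 change of 3.04 (SE 0.21, adjusted p = 5.9e-09 in limma), or 4.68 with limma-voom.

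sima itself, with 1 mutant copy in every control, stood at 2.48, 2.40 and 2.49 FPKM and then at 3.11, 3.20 and 3.23 FPKM. It rose by 0.28 on the log2 scale (SE 0.070, limma adjusted p = 0.0027), but with quantile normalization the value was -0.14 and with median centring 0.11, neither of them past the threshold. tgo (tango, the partner of Sima) fell by 0.51, from 49.8 ± 2.51 to 34.6 ± 2.25 FPKM (SD, n = 3). Vhl, a subunit of the ligase that targets Sima, fell by 0.35 with overlapping stages, and that call was lost without 4 of the 6 libraries in turn and with a fit to these 6 samples alone. Hph, the prolyl hydroxylase that marks Sima for degradation, and ERR, the oestrogen-related receptor that activates glycolytic genes, did not pass (log2 fold changes of -0.07 and 0.13, limma adjusted p = 0.68 and 0.17).

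Maternal and heat-shock RNAs were examined because eggs supply them. Of 18 tested genes of 41 listed for maternal axis and germ plasm RNAs, 11 fell and 4 rose, beside 32.1 and 36.0% over all genes. The summed level of the 23 in the table was 256 to 262 FPKM per 8-12 h library and 196 to 212 FPKM per 12-16 h library. bcd (bicoid, the maternal determinant of the head) stood at 5.41, 5.81 and 5.82 FPKM and then at 0.974, 2.24 and 0.191 FPKM, a log2 change of -1.76 (SE 0.44, adjusted p = 0.0023 in limma), or -2.68 with a pseudocount of 0.1 and -2.92 with limma-voom. smg (Smaug, which destabilizes maternal RNAs) fell by 1.72. In both, the second 12-16 h library was the highest of its stage and the third the lowest. CycB, CycB3 and polo had that order too, but stg was lowest in the second library, and others of the mitotic list were not compared. The part of maternal RNA in the falls of the mitotic genes was not tested. Among the 4 that rose were spz (spaetzle, the ligand of Toll) and gcl (germ cell-less), by 1.80 and 0.86 on the log2 scale. The 4 eggshell and yolk protein genes in the table summed to 0.714 to 1.27 FPKM and 0.513 to 0.892 FPKM, which is near 0. Of 19 tested heat-shock genes, 3 rose, 3 fell and 13 did not pass, beside 36.0 and 32.1% that rose and fell over all genes. With quantile normalization none rose and 6 fell, and with median centring 2 rose and 6 fell. Hsp27 went from 576, 437 and 329 FPKM to 149, 178 and 129 FPKM (log2 change -1.53, SE 0.41), and Hsp23 from 1976, 1503 and 1167 FPKM to 562, 683 and 508 FPKM, a call (limma adjusted p = 0.025) that was lost without 4 of the 6 libraries in turn.

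In Sima 1/20 mutants, a separate set of 6 libraries at the same stages, 4401 genes changed between 8-12 h and 12-16 h. These were out of 6784 tested genes, of which 68.1% were called in controls. Many shared calls would thus arise for any set of genes. Of the 4621 genes called in controls, 79.2% (3659 genes) were also called in the same direction in mutants, which is 83.1% of the genes called there, and 19 were called in opposite directions. Of the 1554 control changes of at least 1 on the log2 scale, 1405 were called in the same direction in mutants. The change itself differed by genotype at 274 genes (4.04%, limma interaction, adjusted p under 0.05), and in 169 of them the value was higher in mutants. This count was unstable, ranging from 43 with a fit to the 12 samples alone to 727 with limma-voom. The 12-16 h mutants also lay further along the first principal component, at -1.74 to 7.37, than the 12-16 h controls, and the part of this shift in the interaction was not tested.

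Mitotic genes and small heat-shock genes were among the largest interactions. CycB, which fell by 3.05 in controls, went from 203 to 173 FPKM in mutants (means, n = 3), with a log2 fold change of -0.25 and an interaction of 2.80 (limma adjusted p = 0.013). CycB3 and polo differed in the same way, by 2.73 and 2.26. bcd stood at 17.7 and then 23.1 FPKM in those mutants (means, n = 3), against 5.68 and 1.14 FPKM in controls, and the part of maternal RNA in these interactions was not tested. Hsp23, which fell in controls, rose by 1.92 in mutants. Gapdh1 went from 3.37 to 8.21 FPKM in mutants, with an interaction of -1.45 (limma adjusted p = 0.015), and Ldh from 7.80 to 5.10 FPKM, with an interaction of -1.27 (limma adjusted p = 0.048).

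**Figure D5:**
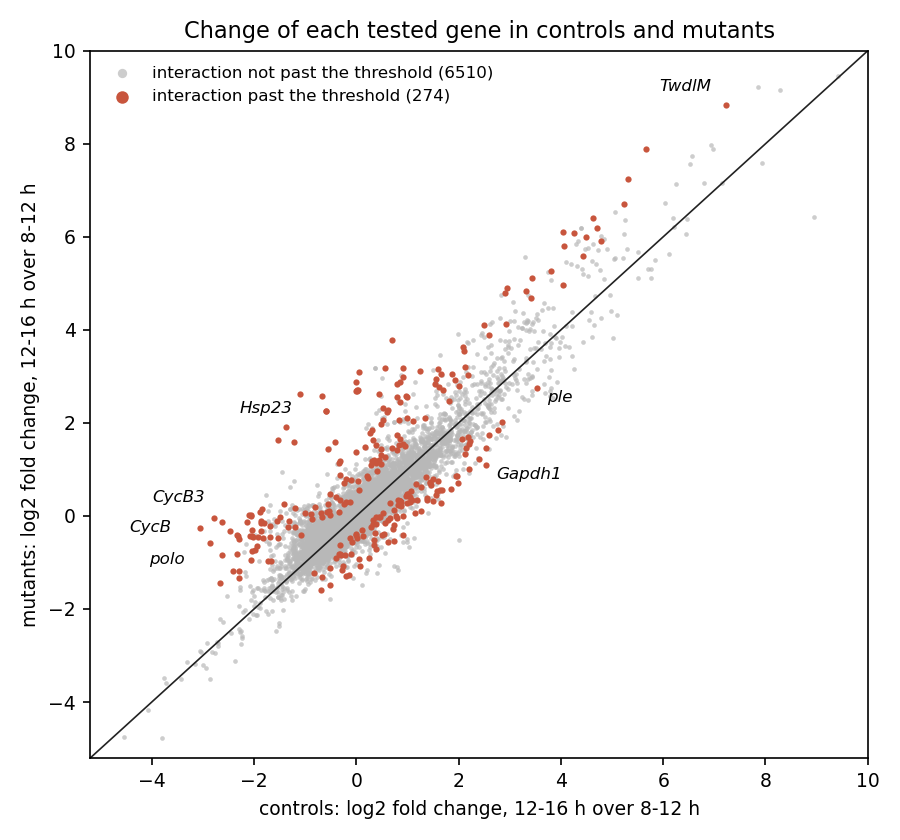
Log2 fold change from 8-12 h to 12-16 h in controls (horizontal) and in Sima 1/20 mutants (vertical) for each of the 6784 tested genes, with 3 libraries per stage and genotype. Red points are the 274 genes with a limma interaction past the threshold, and the line marks equal change; CycB lies at -3.05 and -0.25.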

How the data were processed

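RNA was extracted from whole embryos with a column kit, and 2 µg of it entered stranded mRNA libraries, per the labels' protocols. The authors deposited FPKM values per gene for each sample, not pooled; the submitters' processing notes name featureCounts, DESeq2 and the build BDGP6, without their roles, and the FPKM denominator is not given in the sources used here. Whether strand was used in counting is not given either, so overlapping and antisense genes are uncertain. The table as used had 14336 complete rows, after 1 incomplete row was dropped, with 10889 rows for FlyBase genes (10865 could be given a symbol from the tables supplied and Ensembl release 115). Genes later in its order were not analysed here. Depth was estimated from the steps between low values (99.9% of 13079 were whole multiples within 0.05 fragments).

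The model was fitted with limma 3.58.1 (R 4.3.3; eBayes with a mean-variance trend) to log2(FPKM + 1) of 18 embryo samples with 6 group means, keeping genes with at least 1 FPKM in at least 3 samples, and p-values were adjusted by Benjamini-Hochberg (threshold 0.05). No count test was the main one, since the values used are FPKM. Fold changes are on that log2 scale. Named genes were the 12 largest rises and falls without overlap, up to 4 largest rises and falls of each list with a few marked members, the 6 largest interactions each way, and the hypoxia genes. The members and the lists were chosen with earlier results of these data known. Osi6, Osi7, Ocho, yellow-d, yellow-e, slbo and Obp99a were chosen after their values were seen. The fit was run on simulated data for this comparison (6639 genes). It recovered 37 of 44 genes lowered to 0.25 of their level and 31 of 49 lowered to 0.5. It recovered 44 of 57 raised 2-fold and 50 of 50 raised 4-fold, and called 33 of 6439 unchanged genes. In this simulation, falls were thus recovered less often than rises of the same size. The 33 false calls were a larger share of all calls in the simulation than the threshold of 0.05. The cause of either was not tested, so the simulation does not show that the fit keeps to that threshold. Alternatives were another pseudocount, filter or normalization, no trend, a fit to the compared samples alone, limma-voom on estimated fragments, a replicate block and leaving out each library. Figures were drawn with matplotlib 3.10.9 in Python 3.11.15.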

Additional observations from a re-analysis of the deposited data

Results flagged for a closer look

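The genes below were singled out because the change from 8-12 h to 12-16 h differed between mutants and controls in limma's interaction test, with an adjusted p under 0.05. Each value is the mutant change minus the control change on the log2 scale. No explanation was weighed, and the count of such genes was unstable across alternatives.

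Among cell cycle genes the values were positive: 2.80 for CycB, 2.73 for CycB3, 2.26 for polo, 1.79 for Incenp, 1.67 for dup, 1.66 for geminin and 1.29 for CycA. These genes fell in controls, and their log2 changes in mutants ran from -0.83 (Incenp) to 0.25 (dup). For the small heat-shock genes the values were 3.72 for Hsp26, 3.31 for Hsp23 and 3.16 for Hsp27, and it was 2.82 for CR43482; all of them were negative in controls and positive in mutants.

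Among genes of metabolism and the matrix, the values were -1.45 for Gapdh1, -1.27 for Ldh, -0.71 for Pfk, -0.73 for PH4alphaSG1, -0.99 for PH4alphaSG2 and -0.63 for Pxn. Ldh, PH4alphaSG1 and PH4alphaSG2 had positive changes in controls and negative ones in mutants. For cuticle and epidermis the values were 1.60 for TwdlM, -0.79 for ple, 0.65 for scaf and -0.35 for sinu. For hormone and growth genes they were -0.56 for Hr3, -0.51 for ImpL2 and -1.26 for NT1. The others were 2.61 for CG34268, -1.28 for CG31076, -1.33 for CG14720 and -1.38 for Cyp4e1. The control change of CG34268, from 0.171, 0.186 and 0.199 FPKM to 0.736, 0.455 and 1.14 FPKM, was no longer called without the third 12-16 h library.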

How the results depend on the processing

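The number of changed genes stayed within 1.5 times 4621 in all 15 alternatives, from 4287 to 4487 with 1 control library left out and from 3652 with a minimum of 5 FPKM to 4952 with no filter. Genes higher by at least 1 on the log2 scale numbered 1680 with a pseudocount of 0.1 and 1665 with limma-voom, against 1093. Genes lower by at least 1 numbered 694 with a pseudocount of 0.1, 737 with quantile normalization, 721 with median centring and 775 with limma-voom, against 461. With a library left out these counts ran from 1047 to 1140 and from 440 to 498. The interaction count of 274 became 164 with no filter, 441 with quantile normalization, 43 with a fit to the compared samples alone, 727 with limma-voom and 125 with the replicate block, and ran from 62 (without the second 8-12 h mutant library) to 604 (without the third) with 1 library left out. The cause of these differences was not tested.

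Of the 236 named genes, 9 that were called higher turned negative with quantile normalization, none past the threshold there: RpL22-like (-0.032), lab (-0.087), Hr3 (-0.15), Buffy (-0.16), ths (-0.15), pyr (-0.088), sima (-0.14), Eip74EF (-0.18) and pyd (-0.061). No other alternative turned the sign of a called gene. Among named genes that were not called, grim turned negative with quantile normalization (-0.16) and with median centring (-0.03), Nrx-IV (-0.09) and ERR (-0.04) with median centring, and Hph turned positive without the third 12-16 h (0.01) or the first 8-12 h library (0.05). Calls were lost by 22 of the named genes with median centring, 22 with quantile normalization (these 9 included) and 9 to 22 with 1 library left out.

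The replicate numbers did not pair the samples: same-numbered samples of both stages had correlated deviations of 0.10, -0.16 and -0.07. Adding the replicate block to the model left 4560 called genes, and 3 of the named genes lost their call. Low levels are limited by depth: at about 10 to 13 M fragments, levels under 1 FPKM rest on few fragments, and a pseudocount of 1 shrinks their fold changes.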

Other observations

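Several gene groups outside the lists moved, and were picked after their values were seen. The 4 Bearded family genes tested on chromosome arm 3L, between 14945499 and 14976040 (BDGP6, Ensembl release 115), all fell: beside Tom, BobA and Brd this includes Ocho, from 56.6, 51.6 and 46.7 FPKM to 6.86, 6.32 and 5.65 FPKM, a log2 change of -2.85 (SE 0.18, adjusted p = 2.2e-09 in limma). The yellow genes, relatives of a pigmentation gene, went both ways within 1 cluster. Of the 3 yellow-e genes between 13403423 and 13415286 on chromosome arm 3R, yellow-e3 fell from 60.4, 53.7 and 48.9 FPKM to 3.38, 1.85 and 1.78 FPKM and yellow-e2 by 3.05 on the log2 scale, whereas yellow-e rose from 0.143, 0.113 and 0.120 FPKM to 1.41, 2.35 and 1.90 FPKM. yellow-d, elsewhere, rose by 1.14. The largest fall among the tested genes was that of CG13427, a gene without an assigned role, from 120, 105 and 102 FPKM to 4.38, 3.38 and 3.38 FPKM. Obp99a, an odorant-binding protein gene, fell from 1057, 962 and 868 FPKM to 193, 106 and 168 FPKM. slbo (slow border cells, a C/EBP transcription factor) rose from 4.50, 7.53 and 8.29 FPKM to 127, 130 and 165 FPKM.

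Levels at 16-20 h, given side by side since the 12-16 h libraries are shared, set some risers apart. All gene rows summed to 150507 to 171321 FPKM per 12-16 h control library and to 297772 to 329589 FPKM per 16-20 h one. The comparisons below are in FPKM and were not rescaled for this. Of the 18 tested Osiris genes, 17 had a 16-20 h mean below the lowest 12-16 h value: Osi7 stood at 5.67 ± 4.41 FPKM at 16-20 h (SD, n = 3) and Osi6 at 4.67 ± 3.40 FPKM. Of the 21 tested Tweedle genes, with Twdlbeta included, 12 had a 16-20 h mean above the highest 12-16 h value and 6 below the lowest, among the latter TwdlF at 7.71 ± 4.60 FPKM. Of the 69 tested Cpr, Lcp and Ccp genes, 60 were above. ImpE2 and ImpL1 were at 2.39 ± 0.279 and 15.1 ± 7.31 FPKM at 16-20 h, and slbo at 12.9 FPKM (mean). Of the 29 mitotic genes, 13 were lower again in FPKM at 16-20 h and 5 higher, among them CycB at 23.2 ± 6.72 FPKM. As a share of all summed FPKM, the mitotic list held 0.074 to 0.128% at 12-16 h and 0.037 to 0.060% at 16-20 h.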
